A study of Mus musculus with 12 samples.

Results

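Acute phase proteins are plasma proteins whose synthesis climbs within hours of injury or infection, and the transcripts of 9 of them were followed in mouse kidney before and after ischemia-reperfusion (IR). The 9 were the serum amyloid A genes Saa1, Saa2 and Saa3, the fibrinogen chain genes Fga, Fgb and Fgg, haptoglobin (Hp), orosomucoid 1 (Orm1) and lipopolysaccharide binding protein (Lbp). They were picked by symbol from 24421 annotated symbols, all 9 were found, and where a symbol had several transcript rows the row with the highest total count was used. RNA-seq of whole kidney was available for 4 groups of 3 libraries each, all from 6-week-old male C57BL/6 mice: unoperated wild-type (WT baseline), unoperated mice labelled Tet2-/- (Tet2-/- baseline), WT after IR (WT IR) and mice labelled Tet2-/- after IR (Tet2-/- IR). Tet2 encodes a dioxygenase that oxidises 5-methylcytosine in DNA, and the Tet2-/- line, bred from heterozygous pairs, is a germline knockout that by design affects every cell, blood cells included. The IR mice had the right renal pedicle clamped for an hour, the left kidney removed and saline put into the peritoneal cavity, and were killed a day later. The baseline mice had no operation and no sham-operated group was sequenced, so ischemia cannot be told apart from surgery and loss of the other kidney.

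Most acute phase proteins are made by hepatocytes, where interleukin-6 acts through gp130 and STAT3, interleukin-1 and tumour necrosis factor act through NF-kB, and C/EBP factors bind many of the promoters. Serum amyloid A travels on high density lipoprotein, fibrinogen is assembled from Aα, Bβ and γ chains and is cut by thrombin into fibrin, haptoglobin clears free haemoglobin, and LBP hands bacterial lipopolysaccharide to CD14. Several of these genes are also transcribed outside the liver, such as Saa3 in macrophages and epithelia, Hp in fat and the fibrinogen genes in injured renal tubules.

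The members included a pair of gene clusters. In mm9, the build of the deposited files, Fgg (transcript NM_133862, chr3:82811818-82818971, plus strand), Fga (NM_010196, chr3:82830075-82837539, plus strand) and Fgb (NM_181849, chr3:82846227-82853712, minus strand) lay within 41.9 kb. Saa3 (NM_011315, chr7:53967368-53971046, minus strand), Saa1 (NM_009117, chr7:53995869-53998350, minus strand) and Saa2 (NM_011314, chr7:54007203-54009684, plus strand) lay within 42.3 kb. The single genes were Hp (NM_017370, chr8:112099028-112103072, minus strand), Lbp (NM_008489, chr2:158132229-158158588, plus strand) and Orm1 (NM_008768, chr4:63005590-63009197, plus strand). Because many members moved together after IR, the promoters of 5 of them are shown, from 250 bases before to 50 bases after the RefSeq start in GRCm38.p6, written in the direction of transcription. The windows are chr7:46742931-46743230, minus strand for Saa1; chr7:46751583-46751882, plus strand for Saa2; chr7:46715627-46715926, minus strand for Saa3; chr3:83049814-83050113, minus strand for Fgb; and chr3:83007474-83007773, plus strand for Fgg. Capitals mark matches, on either strand, to patterns associated with the pathways above.
Saa1: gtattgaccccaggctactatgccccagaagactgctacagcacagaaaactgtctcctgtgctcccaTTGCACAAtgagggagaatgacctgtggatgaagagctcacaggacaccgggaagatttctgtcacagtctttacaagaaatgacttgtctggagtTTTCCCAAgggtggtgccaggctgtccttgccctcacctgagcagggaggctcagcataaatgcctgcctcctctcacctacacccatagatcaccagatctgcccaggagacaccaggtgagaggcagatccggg
Saa2: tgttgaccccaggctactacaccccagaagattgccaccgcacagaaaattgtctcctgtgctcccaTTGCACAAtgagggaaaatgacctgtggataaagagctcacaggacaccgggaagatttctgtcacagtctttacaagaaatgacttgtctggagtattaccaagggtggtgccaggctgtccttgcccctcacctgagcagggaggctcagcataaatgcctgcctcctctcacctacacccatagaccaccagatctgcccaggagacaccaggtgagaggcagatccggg
Saa3: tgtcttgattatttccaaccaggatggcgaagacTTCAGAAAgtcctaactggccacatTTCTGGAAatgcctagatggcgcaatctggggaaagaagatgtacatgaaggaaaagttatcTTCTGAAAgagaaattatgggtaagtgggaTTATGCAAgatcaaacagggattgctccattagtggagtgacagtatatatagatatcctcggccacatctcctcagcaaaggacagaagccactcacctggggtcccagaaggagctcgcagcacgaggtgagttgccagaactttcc
Fgb: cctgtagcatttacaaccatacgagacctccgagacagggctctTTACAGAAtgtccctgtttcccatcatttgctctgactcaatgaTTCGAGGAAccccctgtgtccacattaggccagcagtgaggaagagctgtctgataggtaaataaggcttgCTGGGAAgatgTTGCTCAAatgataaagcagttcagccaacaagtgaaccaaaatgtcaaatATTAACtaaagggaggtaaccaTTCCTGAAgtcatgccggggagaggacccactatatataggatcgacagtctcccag
Fgg: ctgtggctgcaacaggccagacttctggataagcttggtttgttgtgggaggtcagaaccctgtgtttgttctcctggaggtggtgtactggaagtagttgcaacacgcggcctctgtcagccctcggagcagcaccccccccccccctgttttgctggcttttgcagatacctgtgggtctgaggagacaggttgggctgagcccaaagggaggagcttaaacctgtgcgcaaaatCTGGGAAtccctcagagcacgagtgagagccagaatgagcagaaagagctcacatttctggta
RefSeq promoters were at hand for 6 of the 9 members, the other one being Fga. In all, 6 patterns were searched, and no match overlapped a match to another pattern. The C/EBP pattern TTNNGNAA was in 5 of the 6 promoters, all but Fgg, but this loose pattern was also in 40.7% of all 32851 RefSeq promoters of the same length. The STAT pattern TTCNNNGAA was in Fga and Fgb (8.3% of all promoters), the interleukin-6 response pattern CTGGGAA in Fgb and Fgg (11.1%), and the HNF1 pattern GTTAAT in Fga and Fgb (7.1%). Neither the NF-kB pattern (8.46% of all promoters) nor the TATA pattern TATAAA (13.6%) was in any of the 6. The Saa1 and Saa2 promoters were identical at 287 of 301 aligned positions (95.35%), whereas Saa1 and Saa3 shared 50.93%. The Saa1 and Saa2 transcripts were also 92.66% identical, with a longest shared run of 76 bases, and the file names each gene among the other's synonyms, so reads may have been split between them and their separate values are uncertain. Orm1 and its neighbour Orm2 were 90.97% identical, which puts the same doubt on Orm1.

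Total counts per library, over 1 row per symbol, ran from 51007366 to 107969888. Levels are given as FPKM, fragment counts scaled to transcript length and library depth. Tet2 itself was not lower in the baseline libraries labelled Tet2-/- (9.245, 16.630 and 10.282 FPKM) than in WT baseline (9.149, 6.248 and 7.334), and was lower in every Tet2-/- IR library (2.638, 3.197 and 1.763) than in every WT IR library (9.339, 3.970 and 3.855). The baseline libraries are therefore named only as labelled, and a deletion that leaves the transcript in place would not be seen here. The fat cell hormone Adipoq stood at 3.014 and 15.622 FPKM in WT baseline replicates 2 and 3 and at 10.008 in Tet2-/- IR replicate 3, against 0.273 or less in the other libraries, so values of Hp and Orm1 are given with the share that rests on these libraries, or without them. In bulk kidney, a change in the number of cells of a type cannot be told apart from a change in RNA per cell.

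In unoperated kidneys, the members with the highest median FPKM were Fga (5.928), Hp (4.040) and Fgg (2.549) in WT, with Hp at 0.546 in the WT library without high Adipoq, and Fga (3.698) and Fgg (1.170) in the Tet2-/- group, and Saa1 and Saa2 were at or near 0 in all 6 libraries. After IR, Fgg, Fga, Fgb, Saa1 and Saa2 were higher in every IR library than in every baseline library of the same genotype, in both genotypes. Saa3 was above baseline without overlap in both genotypes, at 0.400 FPKM or less in WT IR and 10.319 or more in Tet2-/- IR. The edgeR quasi-likelihood test, with Benjamini-Hochberg adjustment over all genes tested, called 4 of 8 tested members higher in WT IR than in WT baseline (Saa1, Saa2, Fga and Fgg), where 1.46% of 16015 genes were called higher and 0.887% lower. In the same libraries 6 of 9 members, among them the untested Saa3, had FPKM values above baseline with no overlap, against 18.9% of all genes tested. In Tet2-/- kidneys all 9 members were called higher after IR, where 12.7% of 16359 genes were called higher and 11.6% lower, and 8 of 9 did not overlap, against 40.5% of genes. With library sizes and no TMM, 2860 genes rose and 1397 fell there in place of 2078 and 1896, the median of all genes moved from 0.04 to 0.27, and all 9 members were still called. The median log2 fold change was 4.15 over the 8 members tested in WT, beside -0.03 over all genes, and 8.79 over the 9 in Tet2-/-, beside 0.04. These medians include fitted changes from baselines at or near 0, which depend on the prior count. The Tet2-/- median is itself the fitted value of Saa2, whose baseline was empty, so it is not a measured fold. In WT, Saa1 and Saa2 passed the count filter only through their IR libraries. In Tet2-/- the same held for Saa1, Saa2, Saa3, Fgb and Orm1. From so few baseline counts these could hardly be called lower, so the counts of members called are partly fixed by the filter.

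**Figure D1:**
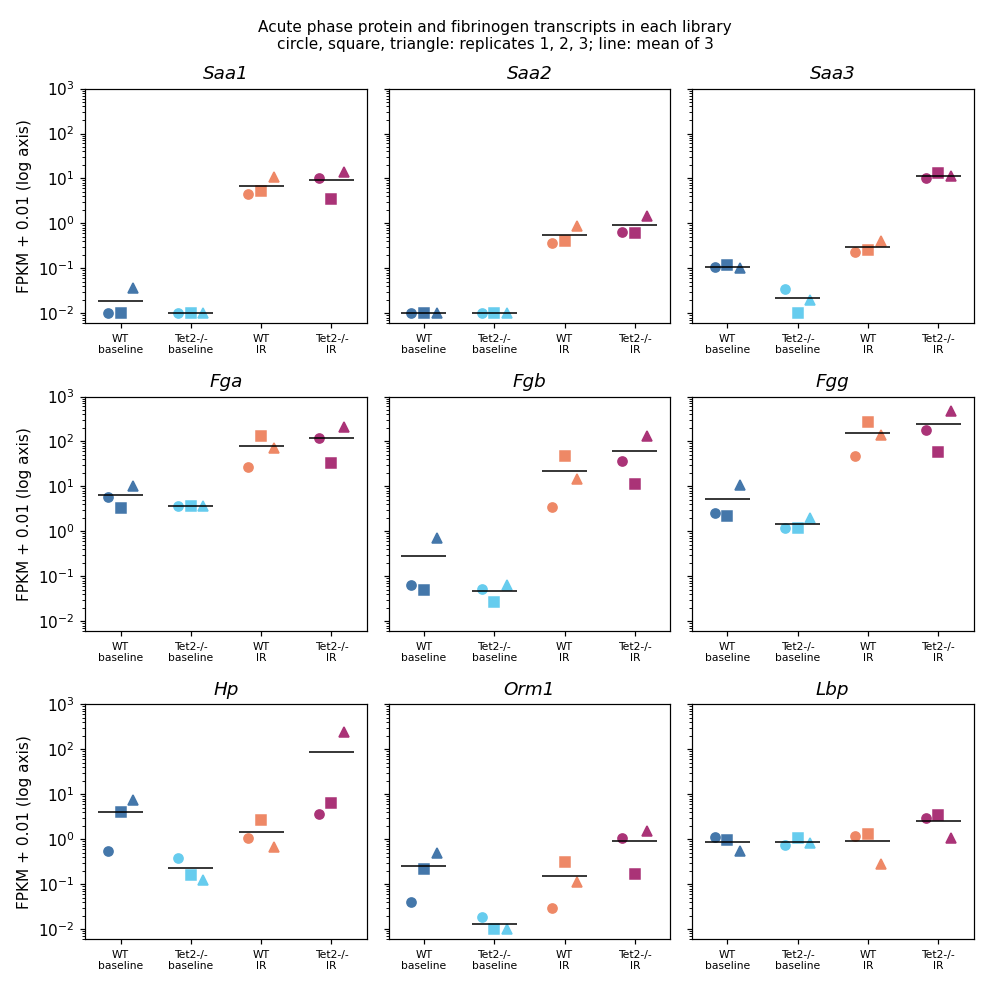
FPKM of the 9 transcripts in each of 12 libraries, by group, on a log axis after adding 0.01. Circles, squares and triangles are replicates 1, 2 and 3 and lines are means of 3. The fibrinogen and Saa1 and Saa2 points rise from baseline to IR in both genotypes, the Saa3 points stand between 10.3 and 13.3 in Tet2-/- IR, and 1 Tet2-/- IR library holds 249.069 FPKM of Hp.

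The replicates set limits on the WT calls. Leaving out 1 library cut the number called in WT to 1, Saa1, when it was WT baseline replicate 1, 2 or 3 or WT IR replicate 2 or 3, and raised it to 5 without WT IR replicate 1. Over all genes the number called higher likewise went from 234 to between 41 and 88 in the former fits and to 365 in the latter. With all libraries and the replicate number as a block, 5 members were called. That fit called 428 genes higher and 559 lower, in place of 234 and 142. In the fits that called Saa1 alone, the log2 fold changes stayed between 2.98 and 4.01 for Fga and 4.22 and 5.93 for Fgg, and these and Saa2, whose fitted fold depends on the prior count, had an adjusted p between 0.0547 and 0.156. With only WT baseline replicate 1 left as control, 0 members and 0 of 16526 genes were called higher, with log2 fold changes of 3.63 for Fga and 5.80 for Fgg, while Saa1 and Saa2 had no count in that control, and in that fit the lone library is assumed to vary like the others. In Tet2-/- kidneys 8 of the 9 calls were kept whichever library was left out, and the exception was Lbp.

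Saa1, which encodes the main circulating serum amyloid A together with Saa2, stood at 0, 0 and 0.027 FPKM in WT baseline and at 0 in all 3 Tet2-/- baseline libraries. It stood at 4.574, 5.327 and 10.740 FPKM in WT IR and at 10.259, 3.399 and 13.584 in Tet2-/- IR. Every IR library was far above every baseline library, while the genotypes overlapped after IR. WT baseline held 1.5 counts in all against 975.5 in WT IR, a depth-scaled ratio of 583 (95% exact interval 161 to 4818, counting error only, with the low count rounded up to 2), and the adjusted p was 0.00842. Against the empty Tet2-/- baseline, Saa1 was at least 178-fold higher in Tet2-/- IR when each empty library was set to 3 counts (adjusted p = 0.00114).

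Saa2 followed Saa1 at a lower level. No count was recorded in any baseline library, and its levels were 0.357, 0.401 and 0.885 FPKM in WT IR and 0.649, 0.592 and 1.428 in Tet2-/- IR. This put it at least 10.3-fold higher in WT IR (adjusted p = 0.0386) and at least 17.6-fold higher in Tet2-/- IR (adjusted p = 0.00235), each against a floor of 3 counts per library. In the 3 WT IR libraries, Saa1 made up 88.8%, 89.2% and 89.3% of the summed FPKM of Saa1, Saa2 and Saa3. The difference between genotypes after IR was 0.30 ± 0.60 (SE) on the log2 scale for Saa1 (adjusted p = 0.776) and 0.59 ± 0.60 for Saa2 (adjusted p = 0.553), and without Tet2-/- IR replicate 3 that of Saa1 was -0.16. The IR effects on Saa1 differed by 3.07 ± 2.34 (adjusted p = 0.434), and for Saa2 that difference had no usable error.

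Saa3, the serum amyloid A made mainly outside the liver, behaved unlike its neighbours. It stood at 0.098, 0.106 and 0.092 FPKM in WT baseline, at 0.025, 0 and 0.010 in Tet2-/- baseline, at 0.219, 0.242 and 0.400 in WT IR and at 10.319, 13.270 and 11.166 in Tet2-/- IR. The groups did not overlap, and the Tet2-/- IR libraries were more than an order of magnitude above all others. WT IR held 8, 11 and 16.5 counts against 4.5, 5.5 and 4.5 in WT baseline, too few to enter the test. From Tet2-/- baseline to Tet2-/- IR the counts went from 1.5 to 2052 in all, a depth-scaled ratio of 982 (95% exact interval 271 to 8111), with an adjusted p of 7.79e-05. Between genotypes after IR, the log2 difference was 5.22 ± 0.37 (SE, adjusted p = 0.00749), a 40.4-fold ratio of mean FPKM. Saa3 was the single member called in that comparison, where 2.3% of 16186 genes were called higher and 3.85% lower, and it remained called in all 15 alternatives, with an adjusted p of at most 0.0399. Besides Saa3, Hp did not overlap between the genotypes after IR, which made 2 of 9 members against 22% of genes.

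The shares within the family shifted with it. Saa3 made up 4.25%, 4.05% and 3.33% of the summed Saa1, Saa2 and Saa3 FPKM in WT IR, and 48.6%, 76.9% and 42.7% in Tet2-/- IR. Markers of neutrophils moved in the same libraries: the summed FPKM of 10 neutrophil genes was 0.645 to 3.03 over the baseline libraries, 4.04 to 9.41 in WT IR and 74.7 to 132 in Tet2-/- IR. Of the 7 neutrophil genes tested, 6 were called higher in Tet2-/- IR than in WT IR, of which S100a8 and S100a9 had the highest FPKM, while Mpo and Elane stayed at 0.029 FPKM or less in every library. The macrophage list had 0 of 10 genes called between the IR groups (edgeR, with 0 also before adjustment), with a summed FPKM of 29.5 to 72.5 in WT IR and 33.4 to 208 in Tet2-/- IR. The part of these cells in the Saa3 level was not tested.

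**Figure D2:**
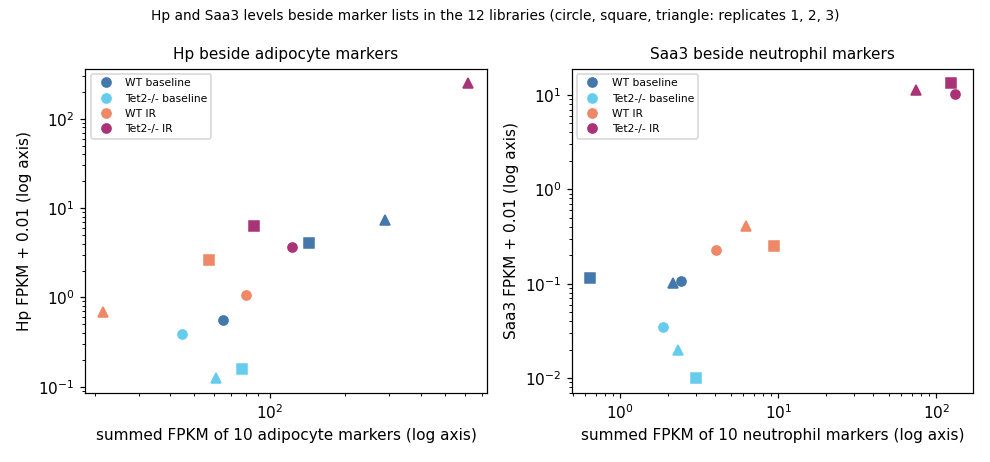
Left, Hp against the summed FPKM of 10 adipocyte markers, and right, Saa3 against the summed FPKM of 10 neutrophil markers, in 12 libraries on log axes, with 0.01 added to Hp and Saa3. Colours are groups and symbols are replicates 1, 2 and 3. Tet2-/- IR replicate 3 is at the top of both axes on the left, with 249.069 FPKM of Hp and 620 of adipocyte markers, and the 3 Tet2-/- IR libraries stand together at the top right on the right.

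Fgg, the γ chain gene, had the highest mean FPKM of the 9 over the 12 libraries. It stood at 2.549, 2.217 and 10.686 FPKM in WT baseline, 1.170, 1.157 and 2.010 in Tet2-/- baseline, 46.592, 264.483 and 140.563 in WT IR and 180.393, 59.342 and 478.595 in Tet2-/- IR. IR and baseline libraries were far apart in both genotypes, and the WT and Tet2-/- IR libraries were interleaved. By FPKM, Fgg ranked 85th of all symbols in Tet2-/- IR replicate 3 and 166th in WT IR replicate 2, against 4920th at best in the baseline libraries. The log2 fold change after IR was 4.79 ± 0.91 in WT (adjusted p = 0.0427) and 7.17 ± 0.89 in Tet2-/- (adjusted p = 0.00084).

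Fga, the Aα chain gene, stood at 5.928, 3.303 and 10.078 FPKM in WT baseline, 3.698, 3.670 and 3.698 in Tet2-/- baseline, 26.617, 132.372 and 73.182 in WT IR and 118.906, 33.514 and 213.383 in Tet2-/- IR. The groups were again apart by operation and interleaved by genotype. Its log2 fold change was 3.51 ± 0.67 in WT (adjusted p = 0.0428) and 4.84 ± 0.67 in Tet2-/- (adjusted p = 0.00133). A shorter Fga transcript in the files, NM_001111048, averaged 93.6 FPKM in WT IR and 143 in Tet2-/- IR, against 77.4 and 122 for the transcript used.

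Fgb, the Bβ chain gene, started lowest of the chains. It stood at 0.055, 0.039 and 0.711 FPKM in WT baseline, 0.043, 0.017 and 0.054 in Tet2-/- baseline, 3.481, 48.320 and 14.650 in WT IR and 36.620, 11.439 and 134.163 in Tet2-/- IR. All IR libraries were above all baseline libraries, but WT IR spanned a 13.9-fold range and WT baseline an 18.2-fold range, the highest being replicate 3. The log2 fold change was 10.55 ± 1.29 in Tet2-/- (adjusted p = 0.000771). In WT it was 6.26 ± 1.39 and missed the threshold (adjusted p = 0.0649), whereas with the replicate number as a block it was 6.31 and passed (adjusted p = 0.0154). Without WT IR replicate 1 it also passed (6.77, adjusted p = 0.0375).

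The chains moved in step but not in proportion. The 6 IR libraries fell into the same order for Fga, Fgb and Fgg, from WT IR replicate 1 at the bottom through Tet2-/- IR replicate 2, WT IR replicate 3, Tet2-/- IR replicate 1 and WT IR replicate 2 to Tet2-/- IR replicate 3 at the top. No other member had that order. Fgb made up 0.351% to 3.31% of the summed fibrinogen FPKM in the baseline libraries and 4.54% to 16.2% after IR. Fga made up 46.9% to 75.8% at baseline and 25.8% to 35.4% after IR, and Fgg 23.8% to 49.8% and 53.7% to 61.5%. For each chain the range of shares at baseline did not overlap the range after IR, and the baseline library nearest to the IR libraries was WT baseline replicate 3 for all 3 chains. Between genotypes after IR, the log2 differences of 0.62 ± 0.76 for Fga, 1.45 ± 1.09 for Fgb and 0.64 ± 0.84 for Fgg missed the threshold (adjusted p = 0.628, 0.42 and 0.651), and without Tet2-/- IR replicate 3 they were -0.12, 0.032 and -0.43. The IR effects themselves differed between genotypes by 1.37 ± 0.95 for Fga, 4.32 ± 2.06 for Fgb and 2.43 ± 1.19 for Fgg on the log2 scale, none past the threshold (adjusted p = 0.379, 0.201 and 0.215).

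**Figure D3:**
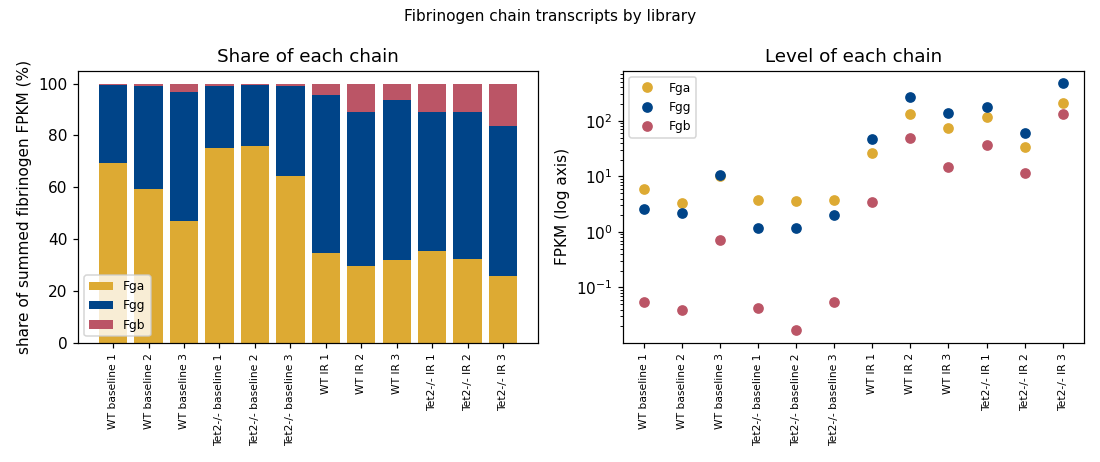
Left, the share of each chain gene in the summed FPKM of Fga, Fgb and Fgg (%), and right, the FPKM of each chain on a log axis, in each of 12 libraries. Fga holds the largest share in all baseline libraries but WT baseline replicate 3, and Fgg holds 53.7% or more in all 6 IR libraries.

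Of the 12 hepatocyte markers, 6 stayed under 1 FPKM in every library. Cps1, a liver urea cycle enzyme, was at 0.002 FPKM or less and Tat at 0.018 or less in every library, Ahsg reached 0.021, Cyp3a11 0.032 and Tdo2 0.089, and albumin (Alb) ran from 0.203 to 0.919. The other 6 were higher in at least 1 library, namely Ttr (6.028 to 95.763), Apob (0.39 to 15.934), Apoh (1.215 to 10.967), Apoa1 (0.476 to 12.207), Apoa2 (2.354 to 4.842) and Serpina1a (0.141 to 3.728). Of the 12, 7 were tested against baseline in each genotype, of which 1 fell in WT IR, 2 fell in Tet2-/- IR and the others were not called. The summed FPKM of the 12 was 68.9 to 89.6 in WT baseline, 36.4 to 110 in Tet2-/- baseline, 34.3 to 52.1 in WT IR and 14.1 to 34.2 in Tet2-/- IR. At baseline most of this sum was Ttr. Over the injured tubule list, which includes Havcr1, Krt20 and Spp1, the summed FPKM was 304 to 614 at baseline, 1780 to 7687 in WT IR and 11691 to 24679 in Tet2-/- IR. Most of the sum after IR was Spp1, with 21437 FPKM in Tet2-/- IR replicate 2. Of the 10 genes, 5 were called higher in WT IR and 9 in Tet2-/- IR. Between the IR groups edgeR called 0 of 10, with 8 that had a p under 0.05 before adjustment. The part of injured tubules in the fibrinogen and serum amyloid A levels was not tested.

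Hp, the haemoglobin scavenger, was the most uneven member. It stood at 0.546, 4.040 and 7.391 FPKM in WT baseline, 0.379, 0.149 and 0.115 in Tet2-/- baseline, 1.043, 2.634 and 0.671 in WT IR and 3.702, 6.365 and 249.069 in Tet2-/- IR. The Tet2-/- IR libraries were above all WT IR and Tet2-/- baseline libraries, with 1 of them far above the rest, and WT IR overlapped WT baseline. The log2 fold change after IR was -1.56 ± 0.88 in WT (adjusted p = 0.341) and 8.57 ± 1.98 in Tet2-/- (adjusted p = 0.0112), and the latter was 4.28 without Tet2-/- IR replicate 3 (adjusted p = 0.00123). The test of the difference between these effects gave 10.16 ± 2.26 (adjusted p = 0.0217). Hp was 1 of 3 members called in that test, with Saa3 and Orm1, where 3.79% of 16741 genes were called with a positive and 5.39% with a negative difference. Scaling by library size without TMM turned these counts from 634 and 902 to 1129 and 700 and moved the median of all genes from 0.10 to 0.24, and the same 3 members were called.

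Whether the fat cell markers tracked Hp within a group depended on how the markers were summarised. The summed FPKM of 10 adipocyte genes was 65.1 to 288 in WT baseline, 44.5 to 77.2 in Tet2-/- baseline, 21.7 to 80 in WT IR and 86.6 to 620 in Tet2-/- IR, and the library with the highest sum was also the richest in Hp in WT baseline and Tet2-/- IR but not in Tet2-/- baseline or WT IR. That sum was mostly Fabp4 in Tet2-/- baseline and WT IR, with 72.211 FPKM of Fabp4 in Tet2-/- baseline replicate 2. By Adipoq alone, or by the mean log2 FPKM of the 10 genes, the richest library was the richest in Hp in each of the 4 groups. The levels were not in 1 ratio across groups: WT baseline replicate 3 held 15.622 FPKM of Adipoq and 7.391 of Hp, Tet2-/- IR replicate 3 held 10.008 and 249.069, and Tet2-/- IR replicate 2 held 0.003 and 6.365. The part of fat cells in the Hp level was not tested. Without WT baseline replicates 2 and 3 the log2 change in WT was 1.31 (adjusted p = 0.555). Without Tet2-/- IR replicate 3, the log2 difference between genotypes after IR fell from 5.91 ± 1.79 (adjusted p = 0.0813) to 1.66 (adjusted p = 0.125). Without all 3 libraries with high Adipoq the difference of effects was 2.96 (adjusted p = 0.147), and it also missed the threshold without Tet2-/- baseline replicate 2 (9.89, adjusted p = 0.0608) or 3 (9.84, 0.0655) or WT IR replicate 1 (9.96, 0.0605) or 3 (9.84, 0.0572).

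Orm1, an acid glycoprotein that carries small lipophilic molecules in plasma, was the lowest member by mean FPKM over the 12 libraries. It stood at 0.030, 0.210 and 0.478 FPKM in WT baseline, 0.009, 0 and 0 in Tet2-/- baseline, 0.019, 0.299 and 0.099 in WT IR and 1.035, 0.156 and 1.544 in Tet2-/- IR. WT IR lay within the WT baseline range at its upper end and below it at its lower end, and Tet2-/- IR overlapped WT IR. From Tet2-/- baseline to Tet2-/- IR the counts went from 0.5 to 216.5 in all, a depth-scaled ratio of 207 (95% exact interval 36.7 to 8200, with the low count rounded up to 1), with an adjusted p of 0.00913, and 0.0164 without Tet2-/- IR replicate 3, which held 112.5 of the 216.5 counts. The log2 difference between the IR groups was 2.63 ± 1.05 (adjusted p = 0.152). In WT the log2 change was -0.81 ± 1.03 (adjusted p = 0.679), and it was 0.17 without WT baseline replicate 3. The test of the difference between these effects gave an adjusted p of 0.035, and between 0.0521 and 0.0730 when WT baseline replicate 2 or 3, any Tet2-/- baseline replicate, WT IR replicate 1 or 3, or Tet2-/- IR replicate 1 or 3 was left out. Without WT baseline replicates 2 and 3 the adjusted p was 0.335, and without Tet2-/- IR replicate 3 as well it was 0.338.

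Lbp, the lipopolysaccharide carrier, changed least. It stood at 1.108, 0.971 and 0.549 FPKM in WT baseline, 0.716, 1.073 and 0.800 in Tet2-/- baseline, 1.159, 1.283 and 0.267 in WT IR and 2.972, 3.479 and 1.057 in Tet2-/- IR. All 4 groups overlapped in FPKM except that a pair of the Tet2-/- IR libraries stood above all others. Its log2 change was -0.05 ± 0.55 in WT (adjusted p = 0.966), with a sign that turned in several alternatives, and 1.25 ± 0.41 in Tet2-/- (adjusted p = 0.0416). The latter call was lost without any one of Tet2-/- baseline replicates 1, 2 and 3 (1.12, 1.43 and 1.21) or Tet2-/- IR replicates 1 and 2 (1.06 and 1.02), with an adjusted p between 0.0656 and 0.127. After IR the genotypes differed in Lbp by 1.39 ± 0.61 (adjusted p = 0.184), and the IR effects differed by 1.34 ± 0.74 (adjusted p = 0.265).

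**Figure D4:**
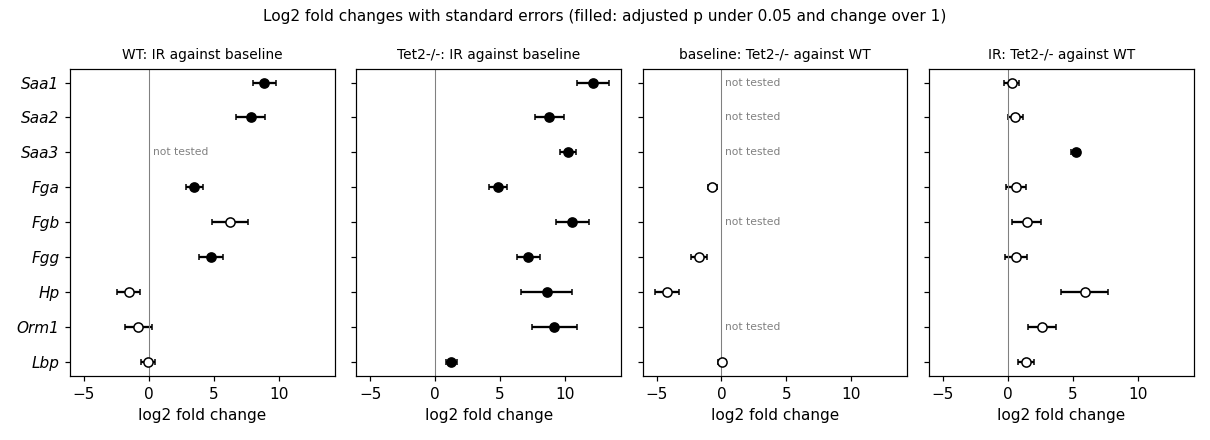
Log2 fold changes in 4 comparisons for those of the 9 transcripts with enough counts to be tested (8 in WT, 4 at baseline, 9 in the others), with standard errors from 3 against 3 libraries. Filled points have an adjusted p under 0.05 and a change over 1: 4 in WT IR against baseline, 9 in Tet2-/- IR against baseline, 0 between genotypes at baseline and 1, Saa3, between genotypes after IR.

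Between the baseline groups, 4 members had enough counts to be tested and edgeR called 0 of them, where 0.0124% of 16086 genes were called higher and 0% lower. Before adjustment, 2 of the 4, Hp and Fgg, had a p under 0.05, against 11.8% of genes. The log2 differences, Tet2-/- labelled minus WT, were -4.19 ± 0.95 for Hp (adjusted p = 0.225), -1.75 ± 0.63 for Fgg (adjusted p = 0.366), -0.72 ± 0.36 for Fga (adjusted p = 0.468) and 0.07 ± 0.31 for Lbp (adjusted p = 0.932). Without WT baseline replicates 2 and 3 they were -1.30 for Hp and -0.72 for Fgg, and without replicate 3 alone -3.38 for Hp, -0.62 for Fgg and -0.22 for Fga, none of them called. DESeq2 called Hp (-4.16, adjusted p = 0.00459) and limma called 0. In Hp and Fgg, 2 of the 4 tested members, every Tet2-/- labelled baseline library was below every WT library, against 16.5% of genes tested. The same held for Saa3 and Orm1, which were not tested. Saa3 had 1.5 counts in all in Tet2-/- baseline against 14.5 in WT baseline, and Orm1 0.5 against 52.5, of which WT baseline replicates 2 and 3 held 16 and 34.5. Saa1, Saa2 and Fgb also had too few counts for the test. The 8 adipocyte genes tested had a median log2 difference of -4.59 between the same libraries, beside 0.00 over all genes, and their part in the Hp and Orm1 values was not tested.

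Other genes of the acute phase response were taken from 6 lists. Over all genes tested, 1.46% were called higher and 0.887% lower in WT IR, and 12.7% and 11.6% in Tet2-/- IR. Between genotypes after IR these shares were 2.3% and 3.85%, and for the difference between IR effects 3.79% and 5.39%. Of the other positive acute phase proteins, 5 of 20 tested rose and 0 fell in WT IR, and 11 of 23 rose and 4 fell in Tet2-/- IR. The iron carrier lipocalin 2 (Lcn2) averaged 3.10 ± 0.986 FPKM (SD, n = 3) in WT baseline, 236 ± 212 in WT IR and 1560 ± 566 in Tet2-/- IR, with log2 fold changes of 6.17 in WT and 9.13 in Tet2-/-. Complement C3 rose by 3.83 and Lrg1, a leucine-rich plasma glycoprotein, by 3.20 in WT IR on the log2 scale. The protease inhibitors Serpina3m and Serpina3n rose by 7.64 and 6.31 in Tet2-/- IR. Between genotypes after IR, 5 of 22 were higher in Tet2-/- IR, among them Serpina3m (3.68), Serpina3n (2.82) and the metallothionein Mt2 (2.36), and 3 were lower. Saa4, the constitutive serum amyloid A gene of the same cluster, averaged 0.151 FPKM in WT baseline, 0.661 in WT IR, 0.171 in Tet2-/- baseline and 0.161 in Tet2-/- IR, and rose in WT IR (2.06, adjusted p = 0.047).

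Among 12 negative acute phase proteins, whose plasma levels drop in the response, 1 of 11 tested rose and 1 fell in WT IR, and 1 rose and 2 fell in Tet2-/- IR. The counts in Tet2-/- IR were near the shares over all genes (12.7% and 11.6%). The thyroid hormone carrier transthyretin (Ttr) fell by 2.08 in WT and by 2.46 in Tet2-/- kidneys on the log2 scale. Serpina6, the corticosteroid carrier, fell by 5.56 in Tet2-/- IR. Apoa4, an apolipoprotein, rose in WT IR (3.20) and was lower in Tet2-/- IR than in WT IR (-3.39).

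Of the inducing cytokines and their receptors, 0 of 14 tested were called in WT IR by edgeR, with 6 that had a p under 0.05 before adjustment. In Tet2-/- IR 10 of 16 rose and 1 fell. The interleukin-1 receptor antagonist Il1rn rose by 5.83, Lif by 5.58 and Il6 by 5.53 on the log2 scale, with Il6 averaging 1.38 FPKM in Tet2-/- IR and 0.05 in WT IR. Between genotypes after IR 4 of 16 were higher in Tet2-/- IR, Il6 (4.56), Il11 (3.08), Il1b (2.59) and Osm (2.45). Of the signalling and transcription factor genes, 0 of 17 tested were called in WT IR (5 with a p under 0.05 before adjustment), and 5 rose in Tet2-/- IR, led by the STAT3 feedback inhibitor Socs3 (4.52), Stat3 (2.03) and the NF-kB subunit Relb (2.01).

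Of the receptors and partners of the member proteins, 2 of 20 rose in WT IR and 11 of 21 rose and 1 fell in Tet2-/- IR. Cd14, the receptor that takes lipopolysaccharide from LBP, averaged 1.71 FPKM in WT baseline, 8.63 in WT IR and 38.3 in Tet2-/- IR, and rose in both genotypes (2.25 and 4.56). The leukocyte adhesion receptor Icam1, which binds fibrinogen, also rose in both (1.35 and 1.14). Fpr1 and Fpr2, receptors for formyl peptides, rose by 5.16 and 4.32 in Tet2-/- IR, the latter being a receptor for serum amyloid A. Between genotypes after IR 7 of 21 were higher and 1 lower, with Fpr2 at 3.70 and Itgam, a chain of the leukocyte fibrinogen receptor, at 2.89.

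Of the genes of fibrin formation and removal, 1 of 18 tested rose and 1 fell in WT IR, and 13 of 19 rose and 3 fell in Tet2-/- IR. The count that fell in Tet2-/- IR was near the share over all genes (11.6%), where 12.7% rose. The fibrin-linking factor F13a1 rose by 4.40 and the urokinase receptor Plaur by 4.04 in Tet2-/- IR on the log2 scale. Serpinf2, the plasmin inhibitor, averaged 210 FPKM in WT baseline and 86.5 in WT IR, and fell by 1.35 in WT and by 2.83 in Tet2-/-. Between genotypes after IR 3 of 17 were higher and 3 lower, with F13a1 at 3.51 and Serpinf2 at -1.66. In the test of the difference between the IR effects, 6 of 20 were called with a positive and 2 with a negative difference.

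Across the 12 libraries, the pattern of Fgg was nearest to those of Fgb (Pearson r = 0.992 of log2 FPKM) and Fga (0.990), and within groups, after group means were taken out, r was 0.981 and 0.944. Outside the members the nearest of 12213 genes with a mean of at least 1 FPKM were Vps50 (0.979), Gldc (0.978), Gpt2 (0.976), Prkag2 (0.976) and Amot (0.971). Saa1, the highest of the serum amyloid A genes by mean FPKM, was nearest to Psma1 (0.987) and Mgst1 (0.987), with Saa2 at 0.983. For Fgg against Saa3, r was 0.740 over all libraries and -0.120 within groups, and against Lbp it was 0.236 and -0.548. These coefficients describe 12 points that share group means and library scale, and are given with no test.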

How the data were processed

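Libraries from whole kidney were grouped by the labels. Alignment by the authors used STAR and mm9, counting over RefSeq transcripts used HOMER, both without stated versions, and the deposited estimated counts move in steps of 0.5 (38.7% of all values are not whole). The deposited FPKM values were made by the authors from the same counts, which the values bear out, with 1 depth per library. Both tables hold 34600 transcript rows for 12 libraries, and 1 row per symbol was kept. Counts were rounded and tested with edgeR 4.0.16 (R 4.3.3) by the quasi-likelihood F test, with TMM scaling and filterByExpr, and p-values were adjusted by Benjamini-Hochberg across every gene in the fit. Calls required a log2 change above 1 in size together with an adjusted p under 0.05, or the adjusted p alone for the difference between IR effects. Every adjusted p in the text comes from this edgeR test unless DESeq2 1.42.0 or limma 3.58.1, run as alternatives, is named. The test was tried on simulated counts first.

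All 9 members were named. From each pathway list up to 3 called genes of largest change and a mean of at least 1 FPKM were named, and the nearest 5 genes outside the members by Pearson r of log2(FPKM + 0.1). A gene that this rule names is not reported here. Saa4, Cd14, Osm, Icam1, Fpr1 and the marker genes were singled out after their values were seen. The members and lists were chosen with earlier results of these data known. Replicate numbers come from the labels, and nothing ties a number to 1 mouse or day. In WT, libraries of the same number deviated together between baseline and IR (r = 0.384, 0.349 and 0.370). The main tests did not use this possible pairing, and a fit with the replicate number as a block was run as an alternative. P-values measure the spread between these libraries, and intervals on counts cover counting error only. Promoters came from RefSeq (GRCm38.p6).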

Additional observations from a re-analysis of the deposited data

Results flagged for a closer look

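The IR effect differed between the genotypes, by the test of the difference in all 12 libraries, for 3 of the 9 members, beside 3.79% of 16741 genes with a positive and 5.39% with a negative difference. For Saa3 the adjusted p was 0.00128 (edgeR), with the 3 Tet2-/- IR libraries above all 9 others. For Hp it was 0.0217, with 1 Tet2-/- IR library at 249.069 FPKM and the next at 6.365, and the difference fell from 10.16 to 2.96 on the log2 scale (adjusted p = 0.147) without WT baseline replicates 2 and 3 and that library. For Orm1 it was 0.035, with 0.5 counts in all in the Tet2-/- baseline libraries. With 1 library left out, the calls of Hp and Orm1 were lost in 4 and 9 of 12 fits, while Saa3 kept its call. In both fits without WT baseline replicates 2 and 3, which leave 1 WT baseline library, all 3 calls were lost.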

How the results depend on the processing

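Of the members' 647 values under the alternatives, 570 kept direction and call, 52 lost their call, 8 gained one and 17 changed sign. Calls were lost in the largest share of alternatives for Orm1 in the difference between IR effects (13 of 21), Lbp in Tet2-/- (7 of 15), Saa2 in WT (7 of 15) and Fga and Fgg in WT (6 of 16 each), followed by Hp in the difference between IR effects (7 of 21). Members called higher in WT IR ranged from 1 to 5 with 1 library left out, and were 0 without WT baseline replicates 2 and 3, where genes called higher went from 41 to 365 and to 0. In Tet2-/- IR limma on log2(FPKM + 1) called 5, and in the baseline comparison DESeq2 called 1. Between genotypes after IR the replicate block called 2 (Saa3 and Lbp) and all 12 libraries in 1 fit called 2 (Saa3 and Hp). For the difference between IR effects, limma on log2(FPKM + 1) called 1, leaving out 1 library gave 1 to 3, leaving out WT baseline replicates 2 and 3 gave 0, and leaving out Tet2-/- IR replicate 3 as well, chosen after seeing the data, gave 0. In that last fit Saa1 was -0.18 and Saa2 -0.0064, and Saa2 has no usable error in this test.

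Signs turned as follows, on the log2 scale. In WT, Lbp was 0.016 without TMM and -0.35 to 0.37 with 1 library left out, Orm1 was -1.92 to 0.17 with 1 left out, and without WT baseline replicates 2 and 3 Hp was 1.31 and Orm1 2.10. At baseline, Lbp was -0.0050 without TMM, -0.0025 by limma on log2(FPKM + 1), -0.26 without WT baseline replicates 2 and 3, and -0.17 to 0.27 with 1 left out. After IR, leaving out 1 library gave -0.16 to 0.87 for Saa1, -0.12 to 1.15 for Fga and -0.43 to 1.22 for Fgg. The causes were not tested. DESeq2 gave no adjusted p for Hp in 3 comparisons. The replicate block changed no other call than those of Fgb in WT and Lbp after IR; same-numbered libraries correlated at 0.099, 0.337 and 0.272 in Tet2-/-, and at 0.012, 0.231 and 0.370 between genotypes after IR. Few counts at baseline limit the folds of Saa1, Saa2, Saa3 and Orm1 to bounds or wide ratios. Over all genes, DESeq2 called 490 higher and 492 lower in WT IR (edgeR 234 and 142), 23 and 297 at baseline (2 and 0), 775 and 880 between genotypes after IR (373 and 623), and 1210 and 1600 for the difference between IR effects (634 and 902). Without TMM the median of all genes between genotypes after IR moved from 0.041 to 0.14. With 1 library left out, genes called between genotypes after IR ranged from 65 to 319 higher and 229 to 623 lower. For the difference between IR effects they ranged from 147 to 980 positive and 485 to 1064 negative.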
